A study of Mus musculus with 4 samples.

Results

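Lgr5, Olfm4, Ascl2, Smoc2, Gkn3, Slc12a2, Igfbp4 and Aqp4 are 8 genes that mark the stem cells at the base of the small intestinal crypt, and they were taken by symbol from the 31053 genes counted in single-cell RNA libraries of crypt cells. All recipients were female C57BL/6 mice aged 8 to 12 weeks that had received lethal irradiation and then a bone marrow transplant, and cells were collected 7 days after transplant. The syngeneic group received C57BL/6 marrow, and the allogeneic group received BALB/c marrow, a mismatch that gives graft-versus-host disease. Each group had 2 libraries, and a library pooled 3 or 4 mice. Irradiation and transplantation were common to all libraries and unirradiated mice were not analysed here. The sample names begin with the letters KO, but no label names a deleted gene. Libraries are called here by group and number. The numbers are names only, and p-values between groups measure the spread between these pools.

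Lgr5 (chr10:115450311-115587780) encodes the receptor for R-spondins, which raise Wnt signalling. Ascl2 (chr7:142966829-142969264) encodes a basic helix-loop-helix transcription factor of the Wnt-driven stem cell programme. The secreted products are Olfm4 (chr14:79984081-80023139), an olfactomedin glycoprotein, Smoc2 (chr17:14279506-14404790), a calcium-binding matricellular protein, Igfbp4 (chr11:99041244-99054392), which binds insulin-like growth factors, and Gkn3 (chr6:87383256-87388935), a gastrokine. Slc12a2 (chr18:57878678-57946821) encodes the basolateral sodium-potassium-chloride cotransporter NKCC1, and Aqp4 (chr18:15389496-15410982) encodes a water channel. Positions are those of the GRCm38 annotation. Lgr5 overlaps A930009A15Rik on the other strand and Olfm4 overlaps the noncoding gene Gm6999 on the same strand, and reads shared with these neighbours could not be separated here.

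Crypt-base columnar cells are the cycling stem cells of the intestine. They sit between Paneth cells, which supply Wnt, Notch and EGF ligands, and their daughters move up the crypt as transit-amplifying cells before becoming enterocytes or secretory cells. Wnt signalling through TCF factors keeps many of the genes that mark these cells on, and graft-versus-host disease is known to injure this compartment.

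The bases before the RefSeq transcription start are shown for Olfm4, the tested member with the largest difference between cells with and without Lgr5 RNA, for Gkn3, the member with 67 syngeneic UMIs and 1 allogeneic UMI, and for Igfbp4 as a contrast in base composition. The 250 bases before the start were read on the strand of the gene, 5′ to 3′, from the RefSeq table of build GRCm38.p6. The Olfm4 window lies inside the annotated gene given above (chr14:79984081-80023139), so its RefSeq start differs from the start of that annotation. The other windows adjoin their annotated genes. Windows of 4 of the 8 members were searched (Ascl2 as well). Those of Lgr5, Smoc2, Slc12a2 and Aqp4 were not searched, so the motif counts do not cover them.
Olfm4, chr14:80000052-80000301, plus strand: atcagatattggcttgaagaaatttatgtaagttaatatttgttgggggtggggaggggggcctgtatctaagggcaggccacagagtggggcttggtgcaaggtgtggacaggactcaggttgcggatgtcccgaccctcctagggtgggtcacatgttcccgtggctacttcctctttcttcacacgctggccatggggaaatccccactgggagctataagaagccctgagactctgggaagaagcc
Gkn3, chr6:87388936-87389185, minus strand: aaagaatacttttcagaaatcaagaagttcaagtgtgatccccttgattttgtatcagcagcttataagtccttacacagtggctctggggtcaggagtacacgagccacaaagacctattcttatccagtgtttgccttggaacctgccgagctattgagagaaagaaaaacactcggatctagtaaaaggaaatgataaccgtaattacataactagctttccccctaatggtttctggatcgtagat
Igfbp4, chr11:99040994-99041243, plus strand: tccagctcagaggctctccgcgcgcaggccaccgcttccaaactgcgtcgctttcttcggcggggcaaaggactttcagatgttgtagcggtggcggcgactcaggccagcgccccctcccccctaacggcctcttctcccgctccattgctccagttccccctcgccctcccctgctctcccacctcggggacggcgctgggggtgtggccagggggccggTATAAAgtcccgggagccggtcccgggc
Capitals mark the only match to the 3 motifs searched on both strands, which was TATAAA, the core of the TATA box, with its first base 28 bases before the Igfbp4 start. Neither CTTTGA, the core of the TCF site, nor CAGCTG, an E-box of the kind bound by Ascl factors, occurred in any of the 4 windows. Over 32851 promoter windows of the same length, 13.8% held CTTTGA, 13.0% held CAGCTG and 12.4% held TATAAA. G and C made up 40.8% of the Gkn3 window, 54.0% of that of Olfm4, 67.6% of that of Ascl2 and 69.2% of that of Igfbp4, against a median of 52.4%. A match is a description of these letters, and more distant regulatory sequence was not examined.

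The 4 libraries held 16565 barcodes and between 14961466 and 26677842 UMIs (unique molecular identifiers, each counting 1 captured RNA molecule). After filters 12185 cells were kept, of which 11616 were epithelial by pan-epithelial markers such as Epcam, Krt8 and Cdh1 (2839, 2410, 1789 and 4578 in syngeneic 1, syngeneic 2, allogeneic 1 and allogeneic 2, the order used throughout) and 415 were T or NK cells (8, 28, 206 and 173). Allogeneic 2 stood apart in makeup. The colonic gene Car1 was at 1476 CPM (its share of all UMIs of the cells named, scaled to the same total in each library) in its epithelial cells and at 0 to 0.15 CPM in the other libraries, and 46.9% of its epithelial cells passed the enterocyte gate against 22.2% to 26.8% elsewhere. Allogeneic 1 had the lowest level of the ileal bile acid carrier Fabp6, 1261 CPM against 7430 to 11173 CPM. It also had the largest share of barcodes over the mitochondrial limit, with 14.6%, 14.9%, 27.2% and 11.2% in the 4 libraries. Cells called as doublets numbered 3, 11, 9 and 77. Pairs of libraries shared between 2 and 7 barcodes.

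The first question was how much of each marker the whole epithelial fraction held in either group. Lgr5 was at 37.0, 26.9, 39.0 and 10.9 CPM. With every cell thinned at random to 2000 UMIs, to remove differences in depth, 5.73%, 4.55%, 6.19% and 1.62% of epithelial cells carried an Lgr5 UMI. Allogeneic 1 was the highest library and allogeneic 2 the lowest, so the syngeneic pair lay between them. The mean was 31.9 ± 7.15 CPM (SD, n = 2) in the syngeneic and 24.9 ± 19.9 CPM (SD, n = 2) in the allogeneic group. Ascl2 was at 29.9, 15, 17.1 and 14.3 CPM, where syngeneic 1 was high and the other 3 libraries were close together.

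Of the secreted products, Olfm4 was at 1541, 1196, 1183 and 274 CPM, and 42.6%, 33.9%, 42.6% and 16.4% of cells carried a UMI of it. Its CPM in both allogeneic libraries lay below both syngeneic ones, although by a narrow margin for allogeneic 1, while the detection shares overlapped. The number of thinned Olfm4 UMIs per cell with any was 8.10, 7.44, 5.66 and 3.04, so that in allogeneic 1 as many cells carried Olfm4 as in syngeneic 1, with fewer molecules in each. Smoc2 was at 63.8, 49.5, 74.2 and 21.5 CPM. Igfbp4 was at 56.3, 42.7, 83.3 and 27.6 CPM. Both had their highest value in allogeneic 1 and their lowest in allogeneic 2.

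The transporters followed the same order. Slc12a2 was at 411, 328, 594 and 155 CPM, and was detected in 43.5%, 35.8%, 52.8% and 17.5% of cells. Aqp4 was at 35.9, 35.2, 39.0 and 8.81 CPM. Only allogeneic 2 was far from the rest for Aqp4.

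Gkn3 was at or near 0 in both allogeneic libraries. Its UMIs numbered 49 and 18 in the syngeneic libraries and 0 and 1 in the allogeneic ones, or 2.97, 1.35, 0 and 0.041 CPM. At 2000 UMIs per cell it was seen in 19 of 2652 and 4 of 2174 syngeneic cells. It was seen in 0 of 1615 and 0 of 3951 allogeneic cells, which allows shares of up to 0.186% and 0.0759% by a floor of 3 counts, or 0.228% and 0.0933% by the exact 95% interval. Pooled over libraries the syngeneic level was 84.6 times the allogeneic one, with a 95% interval from 14.7 to 3389 that covers counting error only. The detection shares of 1 of the 8 members, Gkn3, lay lower in both allogeneic libraries, an order that 21% of genes had. At 1000 UMIs per cell there were 2, Gkn3 and Ascl2, where 21.8% of genes had it. A comparison of 2 against 2 libraries cannot go below p = 0.3333 in an exact permutation test, the two-sided value that Gkn3 reached.

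**Figure D1:**
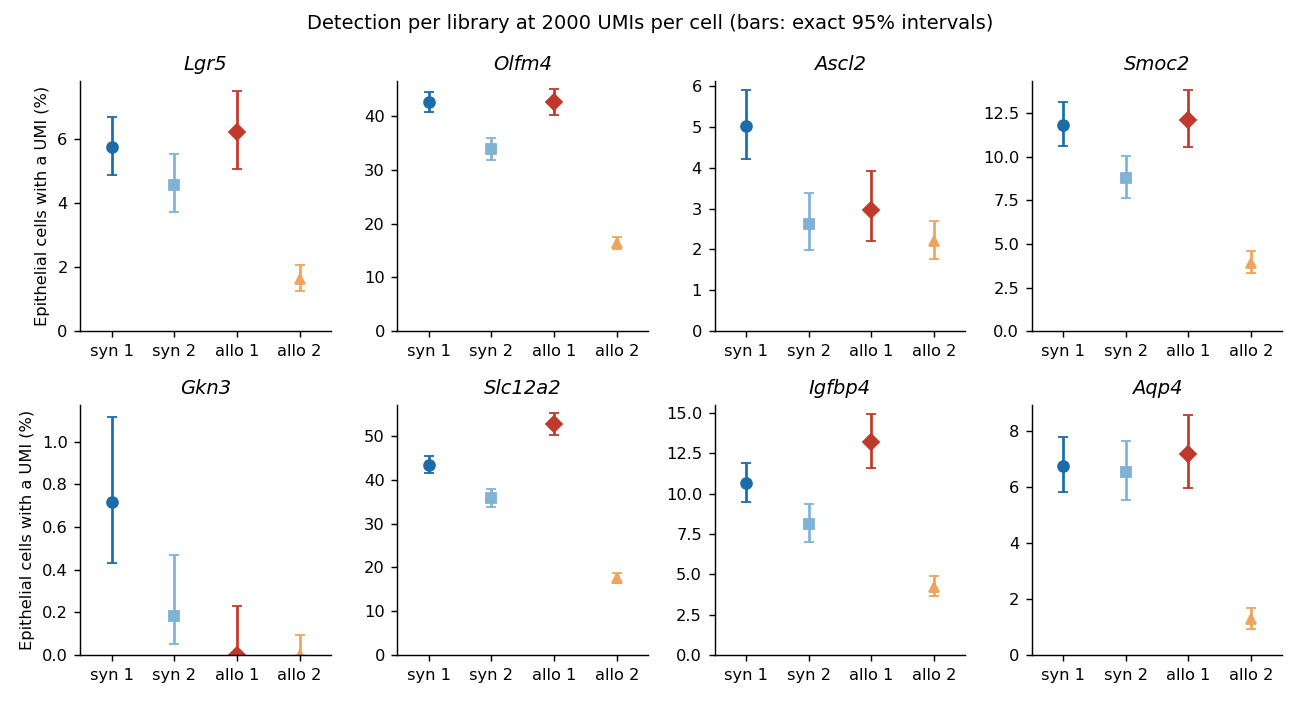
Share of epithelial cells with at least 1 UMI of each gene (vertical axis, %, starting at 0) in the 4 libraries, with each cell thinned to 2000 UMIs; points are libraries and bars are exact 95% binomial intervals, which cover counting error only. Allogeneic 2 is the lowest library for 7 of the genes, and Gkn3 is at 0 in both allogeneic libraries.

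Across the epithelial sums, edgeR's quasi-likelihood test with Benjamini-Hochberg adjustment called 0 of the 8 members different between allogeneic and syngeneic libraries, where 19 of 12018 genes (0.158%) were called. At an unadjusted p under 0.05 the count was 1 member, Gkn3 (adjusted p = 0.114). DESeq2 called 1 of 8 members, again Gkn3, with an adjusted p of 0.00712, where it called 315 genes (2.38%). Log2 fold changes, each with its standard error, were -0.42 ± 0.46 for Lgr5, -0.47 ± 0.33 for Ascl2 and -0.98 ± 0.58 for Olfm4. They were -0.30 ± 0.45 for Smoc2, 0.12 ± 0.40 for Igfbp4, -0.05 ± 0.53 for Slc12a2 and -0.66 ± 0.52 for Aqp4. The median over the 8 members was -0.45, against 0.03 over all genes tested. Both allogeneic libraries were below both syngeneic ones for 2 of 8 members, Olfm4 and Gkn3, while 17.7% of all genes tested had that order. In sums over cells, fewer cells that carry a marker and less RNA per cell cannot be told apart.

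These values depended on which allogeneic library was used. Without allogeneic 1, 7 of 8 members were called, all lower, where 45% of genes were called. Without allogeneic 2, 3 of 8 members were called, where 22.2% of genes were. In the former comparison Olfm4 fell by 2.09 on the log2 scale (adjusted p = 9.8e-11), Aqp4 by 1.78, Lgr5 by 1.33, Smoc2 by 1.17, Slc12a2 by 1.02 and Igfbp4 by 0.61, together with Gkn3. In the latter Slc12a2 was higher by 0.52 (adjusted p = 0.0044) and Igfbp4 by 0.58 (adjusted p = 0.0039), Gkn3 was lower, and Lgr5 was at 0.12 and Olfm4 at -0.37 without a call. Gkn3 was therefore the only member called in the same direction with either allogeneic library alone. With 1 allogeneic library left, its spread was taken to be that of the syngeneic pair.

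**Figure D2:**
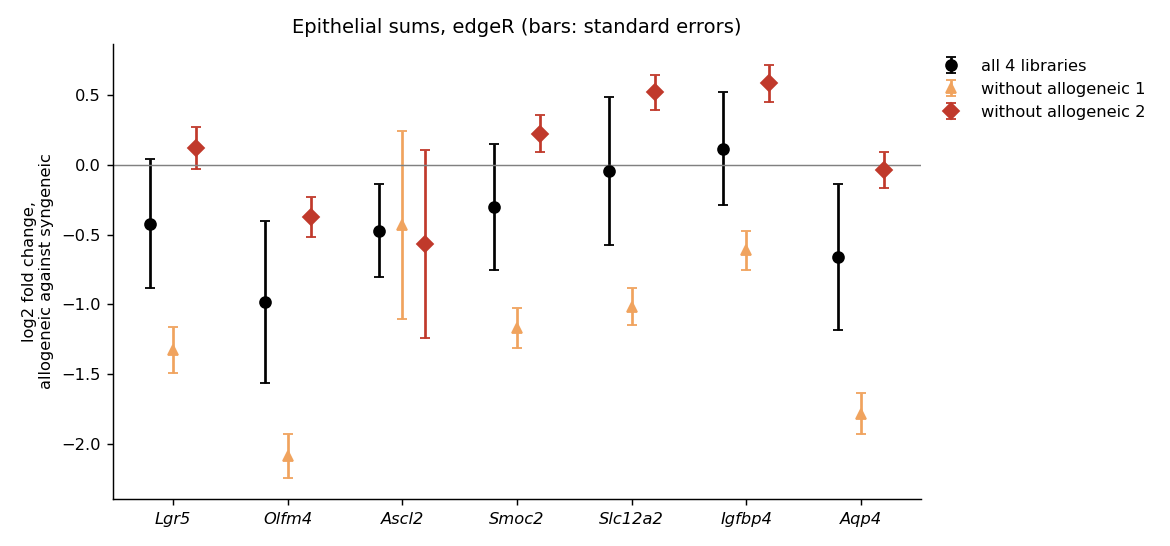
Log2 fold change of 7 members, allogeneic against syngeneic, in epithelial sums (vertical axis), from all 4 libraries and without each allogeneic library; points are edgeR estimates and bars are standard errors. Except for Ascl2, the estimates without allogeneic 1 lie below those without allogeneic 2, and the 4-library estimates lie between them.

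Cells with a Car1 UMI were 257 of 4578 epithelial cells in allogeneic 2 (5.61%) and 1 cell in the other libraries together. Within the non-cycling undifferentiated cells of allogeneic 2, 14.7% carried Car1. Of those with at least 2000 UMIs, the cells with Car1 had Olfm4 in 1.33% and Slc12a2 in 1.33%, and the cells without Car1 had Olfm4 in 31.3% and Slc12a2 in 19.7%. Lgr5 was found in 0% of that class with Car1 and 1.41% without it. With all cells that carried a Car1 UMI left out, the fold changes between groups in epithelial sums hardly moved. They were -0.40 for Lgr5, -0.97 for Olfm4 and -0.65 for Aqp4, and 0 of 8 members were called. Colonic cells in which no Car1 UMI was captured would remain, and the part of the intestinal segment in these values was not tested.

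The next question was where in the epithelium the markers were found. Cells were gated by how many genes of a marker list carried a UMI, with none of the 8 members in any list. The gates gave Paneth, goblet, enterocyte, enteroendocrine and tuft cells, and divided the rest into cycling and non-cycling undifferentiated cells by 13 cell cycle genes. Each class was compared with the mean of the other classes, with library as a block, over the 5 classes that had at least 20 cells in each library. Gkn3 was too low to be tested, so 7 members entered.

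Non-cycling undifferentiated cells had all 7 tested members higher than the mean of the other classes, where 18.1% of 10497 genes were higher. Enterocytes, where all 7 were low, are part of this mean, so a class above it need not exceed every other class. Olfm4 was at 3385, 2731, 2457 and 469 CPM there, and was higher by 1.87 ± 0.20 on the log2 scale (adjusted p = 2.1e-05). Ascl2 was higher by 1.39 ± 0.20, Igfbp4 by 1.33 ± 0.14 and Lgr5 by 1.23 ± 0.26 (adjusted p = 0.0022, and 0.062 without syngeneic 2). Cycling undifferentiated cells also had 7 of 7 higher, where 33.4% of genes were higher. There Ascl2 had the largest difference of the 7, 1.90 ± 0.17 (adjusted p = 1.6e-09), followed by Igfbp4 with 1.45 ± 0.13. Lgr5 was higher by 0.87 ± 0.24 (adjusted p = 0.0046, and 0.0746 without syngeneic 1). Non-cycling cells had a median of 3155, 3274, 3792 and 2823 UMIs and cycling cells 5791, 5954, 9066 and 6492, so that cycling cells of low depth can fall into the non-cycling class, and their part in these values was not tested.

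Paneth-gated cells had 7 of 7 members higher, where 23.9% of genes were higher. Lgr5 was at 63.8, 51.0, 85.3 and 48.2 CPM in them, against 55.2, 44.0, 56.3 and 6.28 CPM in non-cycling undifferentiated cells, and its difference from the mean of the other classes was 2.67 ± 0.22 (adjusted p = 5.3e-08). A UMI of Lgr5 was seen in 10.3%, 9.83%, 16.1% and 7.53% of Paneth-gated cells at 2000 UMIs. Smoc2 was higher by 1.71 ± 0.13, Slc12a2 by 1.68 ± 0.12 and Olfm4 by 1.64 ± 0.20. The Paneth-gated cells had a median of 8287, 8155, 8690 and 6242 UMIs against 4545, 4236, 5649 and 4063 over all epithelial cells, and a part of doublets in this result was not tested beyond the removal of the 100 cells called as such.

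Goblet-gated cells had 2 of 7 members higher, where 22.4% of genes were higher. These were Slc12a2, at 503, 453, 764 and 250 CPM (1.09 ± 0.12, adjusted p = 1.9e-06), and Igfbp4 (0.42 ± 0.14, adjusted p = 0.017). The Igfbp4 call was lost without either allogeneic library, with adjusted p-values of 0.247 and 0.172. Enterocyte-gated cells had 7 of 7 members lower, where 43% of genes were lower. The differences ran from -3.82 for Aqp4 to -4.68 for Lgr5, and Olfm4 was at 50.9, 36.2, 84.9 and 15.8 CPM.

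Enterocytes and T or NK cells gave the background of detection. At 2000 UMIs Lgr5 was seen in 0 of 571, 0 of 530 and 0 of 321 enterocytes and in 0.056% of those of allogeneic 2, and Olfm4 in 1.93%, 1.51%, 2.80% and 0.95%. Of the T or NK cells with 2000 UMIs or more, 71 in allogeneic 1 and 55 in allogeneic 2, none carried Lgr5, which allows shares of up to 4.23% and 5.45%, and Olfm4 was seen in 1.41% of those in allogeneic 1. The shares in undifferentiated, Paneth-gated and goblet-gated cells were above those of enterocytes for Lgr5 and Olfm4 in all 4 libraries.

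Enteroendocrine and tuft cells were too few for a test, with 17 to 32 and 17 to 39 cells in a library. Olfm4 was at 2336, 2135, 1265 and 298 CPM in enteroendocrine cells and at 2422, 2142, 737 and 395 CPM in tuft cells. Lgr5 was at 47.1, 80.1, 61.2 and 11.5 CPM in the former. In both classes Olfm4 was lower in both allogeneic libraries, which rests on few cells.

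**Figure D3:**
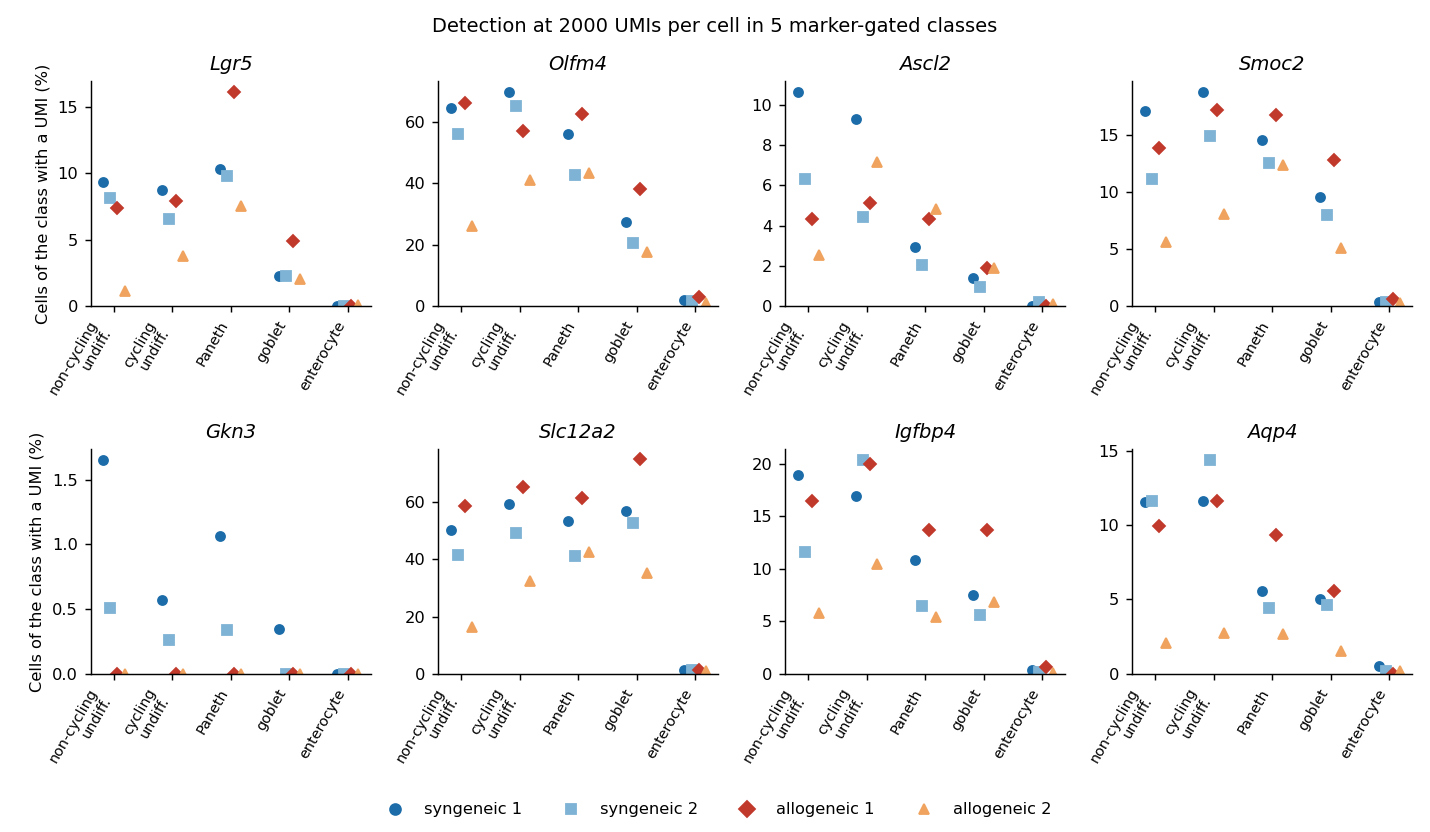
Share of cells with at least 1 UMI of each gene (vertical axis, %, starting at 0) in 5 marker-gated classes, with each cell thinned to 2000 UMIs; each point is 1 library. All genes are near 0 in enterocytes, Lgr5 reaches 7.53% to 16.1% in Paneth-gated cells, and allogeneic 2 is low for most genes in both undifferentiated classes.

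The third question was whether the markers differed between groups inside a class. In non-cycling undifferentiated cells 0 of 7 members were called, where 0.168% of genes were. Ascl2 was at 53.4, 25.9, 19.9 and 13.1 CPM (log2 fold change -1.20 ± 0.40, adjusted p = 0.440), Olfm4 at the values given above (-1.05 ± 0.59) and Aqp4 at 55.2, 52.5, 45.9 and 11.5 CPM (-0.92 ± 0.47). Both allogeneic libraries lay below both syngeneic ones for these 3 of the 7 members, an order shared by 22.3% of genes. Lgr5 gave -0.73 ± 0.73, Smoc2 -0.43 ± 0.47, Igfbp4 -0.27 ± 0.42 and Slc12a2 -0.19 ± 0.60. All 7 estimates were below 0, with a median of -0.73 against 0.02 over all genes. Without allogeneic 2, 4 of the 7 were above 0: Lgr5 at 0.13, Smoc2 at 0.16, Igfbp4 at 0.19 and Slc12a2 at 0.51.

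Lgr5 in this class showed how far the allogeneic libraries were apart. A UMI was seen in 9.38%, 8.10%, 7.36% and 1.16% of cells, the last from 5 of 430 cells with an exact 95% interval of 0.379% to 2.69%. Without allogeneic 1 the log2 fold change of Lgr5 was -2.77, and without allogeneic 2 it was 0.13. Ascl2 was lower with either allogeneic library alone, at -1.42 without allogeneic 1 and -1.07 without allogeneic 2. Such fits leave 1 library in the allogeneic group, so only the sizes are given.

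In cycling undifferentiated cells 0 of 7 members were called, where 2.09% of genes were. Olfm4 was at 2658, 2133, 1527 and 529 CPM, and both allogeneic libraries lay below both syngeneic ones (-1.20 ± 0.40, adjusted p = 0.213). The estimate for Olfm4 was -1.94 without allogeneic 1 and -0.70 without allogeneic 2. Aqp4 was at 58.4, 66.8, 50.9 and 15.3 CPM (-0.90 ± 0.37, adjusted p = 0.355) and was the other member with that order, which 24.2% of genes had. Lgr5 gave -0.44 ± 0.34, Smoc2 -0.49 ± 0.30, Ascl2 -0.31 ± 0.32, Slc12a2 -0.10 ± 0.38 and Igfbp4 -0.01 ± 0.28. The detection shares of Olfm4 in this class were 70.0%, 65.2%, 57.1% and 41.2%. They did not overlap between groups, nor did those of Gkn3. The share of all genes with that order of detection was computed over all epithelial cells only, where it was 21%. No conclusion is drawn from this order.

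In goblet-gated cells 0 of 7 members were called (0.775% of genes), in Paneth-gated cells 0 of 7 (1.15%), and in enterocytes 0 of the 2 tested (2.03%). The median over the 7 members was 0.08 in goblet-gated and -0.08 in Paneth-gated cells, and in the latter Slc12a2 was at 466, 337, 659 and 358 CPM. Over the 5 classes, leaving out allogeneic 1 gave 22 calls in 32 tests of members, where 26.8% of all tests gave one. Leaving out allogeneic 2 gave 12 calls in 33 tests, where 13.4% did, against 0 calls with all 4 libraries. With no filter on low counts, 4 of 39 tests of members gave a call, where 3.14% of all tests did: Gkn3 in both undifferentiated classes, Ascl2 in the non-cycling and Olfm4 in the cycling class. In non-cycling undifferentiated cells allogeneic 2 was the lowest library for all 7 tested members. In cycling undifferentiated cells it was the lowest for 6 of them, while Ascl2 was at 57.5, 30.2, 28.3 and 37.2 CPM and had its second highest value there.

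Gkn3 was too low for the test inside a class and is given by counts. Non-cycling undifferentiated cells held 25 UMIs in the syngeneic libraries and 0 in the allogeneic ones, which is at least 6.57-fold lower against a floor of 3 counts over the group. Cycling undifferentiated cells held 19 and 0, at least 10.2-fold lower, and Paneth-gated cells 14 and 0, at least 2.30-fold lower. Goblet-gated cells held 7 and 1.

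The fourth question was whether Lgr5 RNA came in the same cells as the other markers. At 2000 UMIs per cell 152, 99, 100 and 64 epithelial cells carried an Lgr5 UMI. They were spread over the classes. Of the 152 in syngeneic 1, 51 were non-cycling undifferentiated, 46 cycling undifferentiated, 39 Paneth-gated and 13 goblet-gated, and of the 64 in allogeneic 2, 5, 26, 14 and 17 were. Non-cycling undifferentiated cells made up 33.6%, 32.3%, 17.0% and 7.81% of the Lgr5 cells, lower in both allogeneic libraries, while this class made up 20.5%, 18.2%, 14.3% and 10.9% of all thinned cells.

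**Figure D4:**
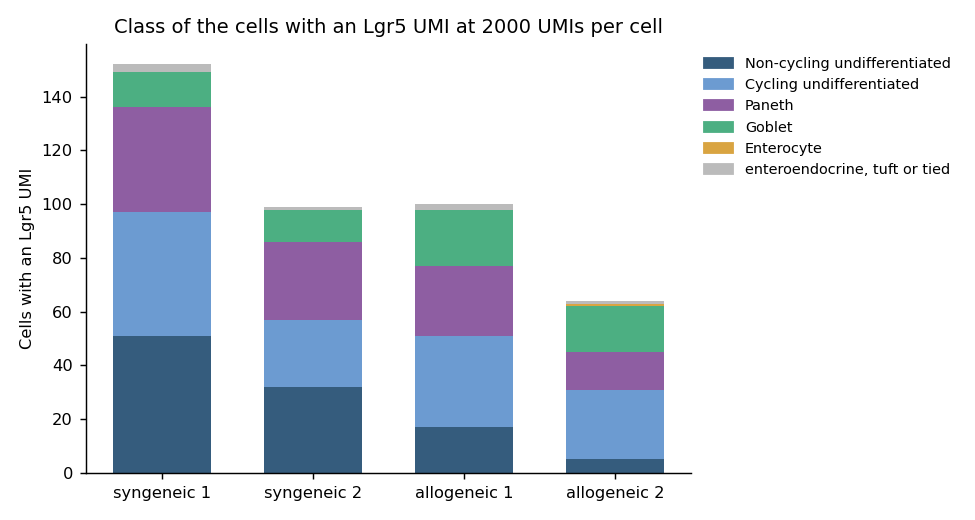
Number of epithelial cells with at least 1 Lgr5 UMI at 2000 UMIs per cell (vertical axis) in each library, stacked by marker-gated class. The bars reach 152, 99, 100 and 64 cells, and the non-cycling undifferentiated section holds 51 cells in syngeneic 1 and 5 in allogeneic 2.

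Cells with an Lgr5 UMI were summed in each library and compared with the sum of the cells without one, with library as a block. Of the 6 other members tested, 5 were higher in the Lgr5 cells, where 7.35% of 8822 genes were higher and 21% were called in either direction. The median over the 6 was 1.29 on the log2 scale, against -0.01 over all genes. The 8 members had been chosen as stem cell markers, so their direction here is no independent evidence. Enterocytes made up 21.5%, 24.4%, 19.9% and 45.2% of the thinned cells, but 0%, 0%, 0% and 1.56% of the Lgr5 cells. Differences by Lgr5 status therefore describe the mix of classes as well as differences within a class.

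Olfm4 was seen in 91.4%, 79.8%, 83.0% and 70.3% of cells with Lgr5 and in 39.7%, 31.7%, 39.9% and 15.5% of cells without it. It was higher by 1.89 ± 0.11 (adjusted p = 9.6e-30), in 4 of 4 libraries. Among undifferentiated cells with Lgr5 the share reached 97.9%, 96.5%, 94.1% and 93.5%. Nearly every undifferentiated Lgr5 cell therefore carried Olfm4, allogeneic 2 included, although the CPM of Olfm4 in the Lgr5 cells was 5316, 4343, 3430 and 1469.

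Smoc2 was seen in 27.6%, 15.2%, 29.0% and 21.9% of cells with Lgr5 against 10.9%, 8.48%, 11% and 3.63% without it, a difference of 1.4 ± 0.19 (adjusted p = 1.1e-09). Igfbp4 was seen in 29.6%, 24.2%, 24.0% and 18.8% against 9.48%, 7.33%, 12.5% and 3.99%, a difference of 1.45 ± 0.19 (adjusted p = 4.4e-10). For both genes the ratio between the shares was highest in allogeneic 2, 6.03 for Smoc2 and 4.70 for Igfbp4. It was also highest there for Olfm4 (4.54), Ascl2 (3.70) and Slc12a2 (2.27), but not for Aqp4 (1.24). Enterocytes made up 45.2% of the thinned cells of allogeneic 2 against 21.5%, 24.4% and 19.9% in the other libraries. Their part in these ratios was not tested.

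Slc12a2 was seen in 77.0%, 75.8%, 76.0% and 39.1% of cells with Lgr5 against 41.4%, 33.9%, 51.3% and 17.2%, a difference of 1.02 ± 0.13 (adjusted p = 2.1e-10). Aqp4 was seen in 15.8%, 17.2%, 14.0% and 1.56% against 6.20%, 6.02%, 6.73% and 1.26%, a difference of 1.18 ± 0.24 (adjusted p = 7.0e-05). The transporters were low in allogeneic 2 also among its Lgr5 cells, where Aqp4 was found in 1 of 64. Among undifferentiated cells alone the Aqp4 difference was 0.65 and lost its call (adjusted p = 0.160).

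Ascl2 was seen in 9.21%, 3.03%, 6.00% and 7.81% of cells with Lgr5 against 4.76%, 2.60%, 2.77% and 2.11%, and its difference of 0.84 ± 0.34 missed the threshold (adjusted p = 0.0607). At 4000 UMIs per cell it was 1.21 (adjusted p = 1.3e-05), and among undifferentiated cells it was 0.07 (adjusted p = 0.957). Gkn3 failed the filter on low counts. In the syngeneic libraries 6 of 19 and 3 of 4 cells with Gkn3 carried Lgr5, and by DESeq2 Gkn3 was higher in the Lgr5 cells (4.33, adjusted p = 0.0040), from UMIs of the syngeneic libraries only.

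**Figure D5:**
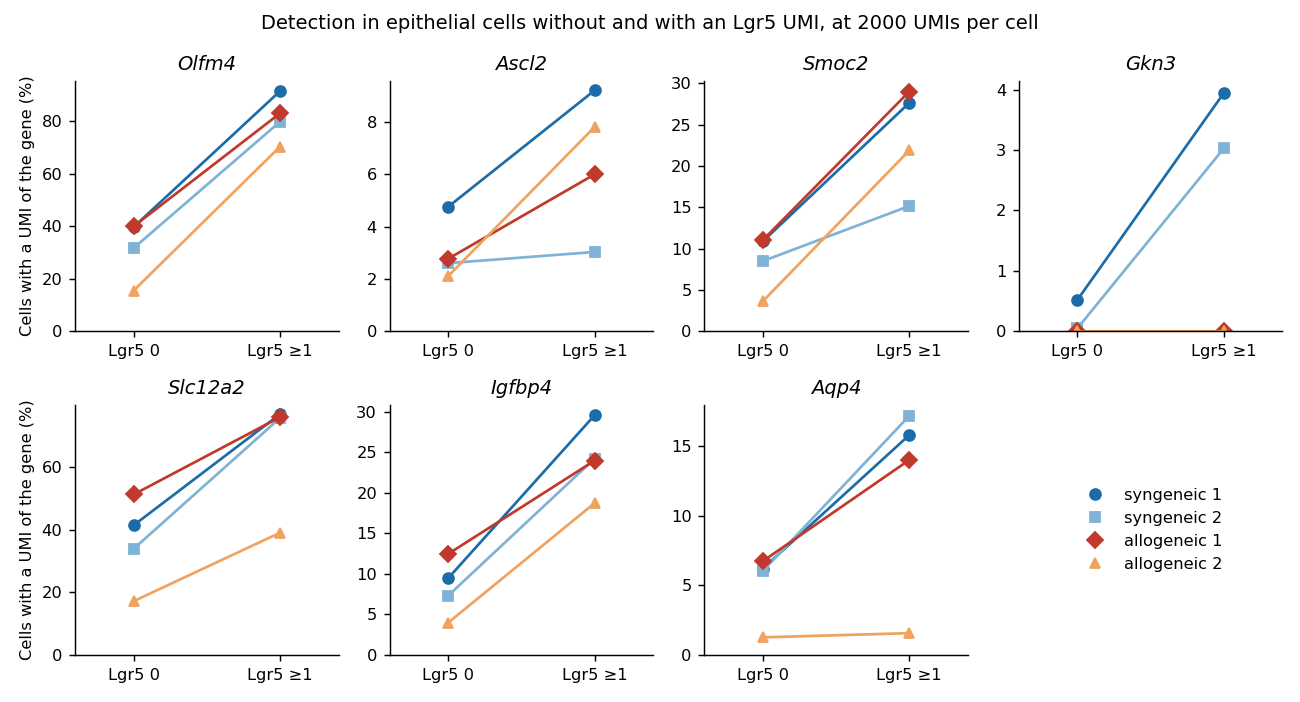
Share of epithelial cells with at least 1 UMI of each gene (vertical axis, %, starting at 0) among cells without and with an Lgr5 UMI, at 2000 UMIs per cell; each line joins the values of 1 library. Every line slopes up except those of Gkn3 in the allogeneic libraries, which stay at 0, and that of Aqp4 in allogeneic 2 is nearly flat.

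Whether coexpression differed between groups was asked with an interaction of Lgr5 status and group. It called 0 of 6 members, where 0.102% of genes were called, and at an unadjusted p under 0.05 the count was also 0. Within the Paneth gate alone Olfm4 was higher in cells with Lgr5 by 0.79 (adjusted p = 1.8e-05), while Smoc2 gave 0.56 (adjusted p = 0.547) and Slc12a2 gave 0.02 (adjusted p = 0.989). Without the Paneth gate the difference of Olfm4 was 2.03. In goblet-gated cells the share with Olfm4 was higher with Lgr5 in 4 of 4 libraries and the share with Slc12a2 in 2 of 4. Differences between gates were not tested. Median UMIs before thinning were 5132, 5440, 6902 and 7151 in the Lgr5 cells and 4799, 4548, 6165 and 4577 in the others.

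Beyond Lgr5, the markers were found together in pairs. Leaving Gkn3 aside, 21 pairs can be formed of the 7 genes, and 20 were seen in the same cell more often than the product of their shares in all 4 libraries, with ratios from 0.86 to 6.36. The exception was Ascl2 with Smoc2, below 1 in 1 library. Since all 7 genes are near 0 in enterocytes, a ratio above 1 describes the mix of classes as well as pairing within a class. At least 4 of the 8 members were seen in 189, 100, 99 and 33 cells, which is 7.13%, 4.60%, 6.13% and 0.835% of the cells thinned.

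The genes most like Lgr5 were sought among 535 that were called higher in its cells, were higher in all 4 libraries and had a mean of at least 20 CPM there. By log2 difference the first 10 were Cbs, Scn2b, Limch1, Rgcc, Zkscan17, Ptpro, Olfm4, Lpcat2, Sorbs2 and Kcnq1ot1. Cbs, an enzyme of the transsulfuration pathway, was at 26.3, 25.2, 25 and 54.7 CPM in the Lgr5 cells and at 6.4, 3.61, 6.27 and 4.37 CPM in the others (2.42 ± 0.43, adjusted p = 3.8e-06). Scn2b, a sodium channel subunit, was at 52.6, 25.3, 45.0 and 7.81 CPM against 9.80, 6.02, 5.94 and 2.96 (2.32 ± 0.39). These rest on few molecules, 25 thinned UMIs of Cbs and 31 of Scn2b in all Lgr5 cells, whereas Olfm4, in place 7, rests on 3350. Kcnq1ot1 lies antisense within Kcnq1, and their reads are uncertain. Igfbp4 took place 38, Smoc2 42, Aqp4 81 and Slc12a2 129. Since almost no Lgr5 cell was enterocyte-gated, this ranking also describes the mix of classes.

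The 5 genes furthest in the other direction were Pmp22, Fabp1, Ggt1, Saa1 and Slc13a2, with no UMI in any Lgr5 cell. Fabp1, the fatty acid carrier of enterocytes, was at 176, 145, 179 and 117 CPM in cells without Lgr5, at least 40.6-fold above the Lgr5 cells against a floor of 3 counts. Pmp22 was at least 61.1-fold above and Slc13a2, a citrate and succinate transporter, at least 42.4-fold. Fabp1 was also a marker of the enterocyte gate, and the mix of classes enters these differences too.

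A list of 30 other stem cell and Wnt-driven crypt genes was followed beside the members. Of its 24 genes tested against Lgr5 status, 20 were higher in the Lgr5 cells and none lower, where 7.35% of all genes were higher. Their median was 1.19, against -0.01 over all genes. The mix of classes enters these values as well, since almost no Lgr5 cell was enterocyte-gated. Sp5, a Wnt target, gave 1.71 ± 0.35, Soat1, which esterifies cholesterol, 1.53 ± 0.21, Ephb3, an ephrin receptor, 1.60 ± 0.34, and Axin2, the Wnt feedback inhibitor, 1.15 ± 0.24. Between groups 0 of the 27 tested in epithelial sums were called, where 0.158% of all genes were. Their median was -0.19 against 0.03 over all genes, and 3 passed an unadjusted p of 0.05.

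Inside classes 2 genes of this list were called between groups. The first was 2210407C18Rik, which was higher in the allogeneic libraries in cycling undifferentiated cells, at 396, 436, 964 and 2041 CPM (2.0 ± 0.43, adjusted p = 0.034). It was also higher in goblet-gated cells (2.62 ± 0.43, adjusted p = 0.047) and in Paneth-gated cells (2.11 ± 0.42, adjusted p = 0.032). Axin2 was lower in enterocytes, at 31.4, 21.7, 6.70 and 5.32 CPM (-2.0 ± 0.34, adjusted p = 0.024). Over all genes, 2.09% were called in cycling undifferentiated, 0.775% in goblet-gated and 1.15% in Paneth-gated cells, and 2.03% in enterocytes. For both genes the groups did not overlap, an order whose share over all genes is not given here. The calls of 2210407C18Rik were lost without either syngeneic library, with adjusted p-values from 0.105 to 0.587 and log2 fold changes from 1.92 to 2.63, and that of Axin2 was lost without syngeneic 1 (-1.74, adjusted p = 0.196). None of the members tested in a class was called there between groups.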

How the data were processed

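UMI counts per gene and cell are used as the authors deposited them. Cell Ranger 2.1.1 and mm10 are named in the submitters' processing notes, while the matrix header names software 3.1.0; for annotation and barcode filter, the choice was not given in the sources used here. Cells were kept with at least 500 genes, 1000 UMIs and at most 20% mitochondrial UMIs, and Scrublet calls (scanpy 1.11.5; 0.814% of cells) were removed. Class gates needed 5 enterocyte, 4 goblet, 7 Paneth, 4 enteroendocrine, 4 tuft or 5 cycling markers; these limits were set after the marker counts were seen. CPM is the summed count of a gene divided by all UMIs of the same cells. Detection used cells thinned to 2000 UMIs, which left out 1224 epithelial cells (187, 236, 174 and 627). Sums per library were tested with edgeR 4.0.16 (quasi-likelihood, robust, filterByExpr, TMM; R 4.3.3), adjusted by Benjamini-Hochberg over all genes tested, threshold 0.05; DESeq2 1.42.0 was an alternative. The edgeR fits were checked on simulated data with known changes. The members and lists were chosen with earlier results of these data known. All 8 members, genes of the list of 30 called between groups, and the 10 genes most and 5 least like Lgr5 are named. Of the 20 list genes called higher by Lgr5 status only some are named. Calls of list genes between classes are not given.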

Additional observations from a re-analysis of the deposited data

How the results depend on the processing

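Leaving out each library in turn gave 0 to 7 member calls between groups in epithelial sums against 0 with all 4, and 102 to 5599 called genes against 19. DESeq2 gave 1 member and 315 genes, no filter on low counts 1 and 585, and an equal mix of the gated classes, chosen after seeing the data, 1 and 84; in each the member was Gkn3. A mitochondrial limit of 10% gave 0 genes. Within classes the 0 member calls became 4 of 39 tests with no filter, where 3.14% of all tests were called, and 0 to 22 when a library was left out, with the shares of all tests given above for the allogeneic libraries. Members whose detection did not overlap were 1, against 2 at 1000 UMIs per cell and 1 to 8 without a library. Without a library, 1 value is set against 2, which makes such an order easier to reach. The share of all genes with that order is not given for the fits without a library. No conclusion about the members is drawn from those counts. The 5 members called by Lgr5 status became 2 with at least 2 Lgr5 UMIs and 1 in the Paneth gate only (added after seeing the data), and the 1855 genes became 1094 by DESeq2, 428 with at least 2 Lgr5 UMIs, 1027 at 10% mitochondrial UMIs, 5007 not thinned, 44 in the Paneth gate, 378 in undifferentiated cells and 658 at 1000 UMIs. Without library as a replicate block, 3 members and 686 genes were called. No paired analysis was possible because the numbers of the allogeneic and syngeneic libraries follow the order of the records and pair nothing.

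In epithelial sums, leaving out a library changed the sign of log2 fold changes between groups, which ran from -1.32 to 0.12 for Lgr5, -0.86 to 0.054 for Ascl2, -1.17 to 0.23 for Smoc2, -1.02 to 0.52 for Slc12a2 and -0.61 to 0.58 for Igfbp4. In non-cycling undifferentiated cells, leaving out a library changed the sign of log2 fold changes between groups, which ran from -2.77 to 0.13 for Lgr5, -1.46 to 0.16 for Smoc2, -1.66 to 0.51 for Slc12a2 and -0.98 to 0.19 for Igfbp4. In cycling undifferentiated cells, leaving out a library changed the sign of log2 fold changes between groups, which ran from -0.72 to 0.21 for Ascl2, -0.75 to 0.35 for Slc12a2 and -0.42 to 0.33 for Igfbp4. In epithelial sums Slc12a2 turned to 0.015 with the equal mix and 0.02 with scaling by library size only, and among Lgr5 cells, an alternative added after seeing the data, Smoc2 turned to 0.20 and Igfbp4 to -0.48. In cycling undifferentiated cells Igfbp4 turned to 0.018 at 10% mitochondrial UMIs, 0.007 with no filter and 0.021 without Car1 cells, also added later. The Ascl2 difference by Lgr5 status turned to -1.86 with at least 2 Lgr5 UMIs. The cause of these changes was not tested. Gkn3, with 68 UMIs in epithelial cells, and Lgr5 inside single classes were limited by depth.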
